A study of Mus musculus with 11 samples.

Results

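RNA of neuroprogenitor cells (NPCs) with an induced deletion of Smg6 was compared with RNA of NPCs that had received the same drug but carried no Cre recombinase. All 53801 genes of the count files were considered in 8 of the 11 libraries of the series, 4 Smg6-iKO and 4 Ctr + 4-OHT, and 17558 genes passed the filter on low counts and were tested. The cells were grown with EGF and bFGF from brains of E13.5 embryos on a mixed C57BL/6 and 129SV background, and every embryo was Smg6 flox/flox, so that the controls carried the floxed alleles as well. In the order in which values are given below, the Smg6-iKO cells (libraries SMH_127_plus_OHT, SMH_128_plus_OHT, SMH_132_plus_OHT and SMH_133_plus_OHT, numbered by embryo) were RosaCreER tg/+. In them CreERT2 is expressed from the Rosa26 locus and recombines floxed DNA once 4-hydroxytamoxifen (4-OHT) is added. The Ctr + 4-OHT cells (SMH_125_plus_OHT, SMH_126_plus_OHT, SMH_129_plus_OHT and SMH_131_plus_OHT) were RosaCreER +/+ and have no CreERT2. Both groups received 4-OHT at 1 µM for 3 days, and RNA was isolated on day 6. Drug exposure was therefore equal, whereas Cre genotype and Smg6 deletion differed together, and no embryo gave a library to both groups. Untreated RosaCreER tg/+ cells (Ctr, 3 libraries), from the same embryos as 3 of the Smg6-iKO libraries (titled SMH_128, SMH_132 and SMH_133), are given beside single genes to show how a gene stood with CreERT2 present and Smg6 intact. Their CreERT2 had not been activated by 4-OHT, and no group had activated CreERT2 together with intact Smg6. Activated CreERT2 and loss of Smg6 can therefore not be told apart.

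Nonsense-mediated mRNA decay (NMD) removes transcripts on which translation stops too early, as well as many normal transcripts with an upstream reading frame, a long 3′ end or an intron behind the stop codon. UPF1 is recruited to such a stop and phosphorylated by SMG1, whose activity is held by SMG8 and SMG9. SMG6 is the endonuclease that then cuts the RNA near the stop, while SMG5 helps to bring in enzymes that remove the cap and the poly(A) tail. Host genes of small nucleolar RNAs (snoRNAs), which guide the modification of ribosomal RNA, are classic NMD substrates, because their spliced remnants carry short reading frames that end early. Several NMD factors are NMD substrates themselves.

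The libraries held 26418249 to 33756875 counted reads, and expression is given as CPM, a gene's share of a library's reads scaled to a common total after TMM normalization. Nes, a filament gene of neural progenitors, lay between 720 and 822 CPM in Smg6-iKO and between 763 and 1018 CPM in Ctr + 4-OHT, and Sox2, a transcription factor of the same cells, between 179 and 300.4 CPM over the 8 libraries. Summed over the whole list, microglial markers reached at most 2.24 CPM and globin and other blood genes at most 0.467 CPM in any of the 8 libraries. Other cell types were present. Neuronal markers summed to 2334 to 2704 CPM in Smg6-iKO and 1829 to 2991 CPM in Ctr + 4-OHT. Astrocyte markers summed to 925 to 1107 CPM and 1056 to 1096 CPM, and mesenchymal markers to 282 to 1539 CPM and 316 to 910 CPM, in the same order. Xist and Ddx3y placed 1 female and 3 male embryos in Smg6-iKO and 2 of each in Ctr + 4-OHT. In a principal component analysis of the 1000 most variable genes, SMH_129_plus_OHT stood apart from the other controls (-27 on the first component, 29.3% of the variance) and SMH_131_plus_OHT (11.95) lay among the Smg6-iKO libraries (0.40 to 19.1). On the second component (22.4%) SMH_125_plus_OHT stood apart (-22.06, next SMH_133_plus_OHT at -10.34). It also had the lowest share of mitochondrial reads (1.175%, next SMH_128_plus_OHT with 1.71%).

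The gene lists were chosen with earlier results of these data known, so their counts describe the lists and are no independent test. In them, 10 of 20 snoRNA hosts, 9 of 22 coding NMD targets and 3 of 13 NMD factors were higher in Smg6-iKO. Lower were 32 of 58 replication-dependent histones and 14 of 72 genes of mitosis. The mitosis calls went down to 1 with embryo sex in the model and those of the NMD factors to 0. Of the genes tested, 206 had an adjusted p under 0.05 (edgeR's quasi-likelihood test, DEGs hereafter). Of these 73 were lower in Smg6-iKO, 0.416% of all genes tested, and the rest were higher, 0.757%. The groups were fully separate in all 206 DEGs. Over all genes tested, the groups did not overlap in 884 higher genes (5.03%) and 1051 lower genes (5.99%). Rises and falls differed in size. Among the rises 19 exceeded a log2 fold change of 1 and the median was 0.52, whereas among the falls 1 gene passed -1, a copy of ribosomal RNA, and the median was -0.42. The largest fall of a protein-coding DEG was -0.63, in a histone gene. With TMM 64.6% of DEGs were higher, with DESeq2 size factors 61.0% and with upper-quartile scaling 70.4%, whereas removal of the trend on gene length gave 94 higher and 156 lower (37.6% higher). The DESeq2 Wald test called 387 higher and 493 lower (44.0% higher), and edgeR on all libraries in 1 fit 243 higher and 241 lower (50.2% higher). That fit took Ctr and Smg6-iKO libraries of the same embryo as independent. Leaving out 1 library gave between 47 and 100 rises and between 11 and 74 falls, the fewest falls without SMH_132_plus_OHT and the fewest rises without SMH_133_plus_OHT. DEGs fell to 66 without SMH_132_plus_OHT, 71 without SMH_133_plus_OHT, 72 without SMH_127_plus_OHT, 84 without SMH_131_plus_OHT and 111 without SMH_125_plus_OHT, and without SMH_129_plus_OHT there were 87 rises and 39 falls.

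**Figure D1:**
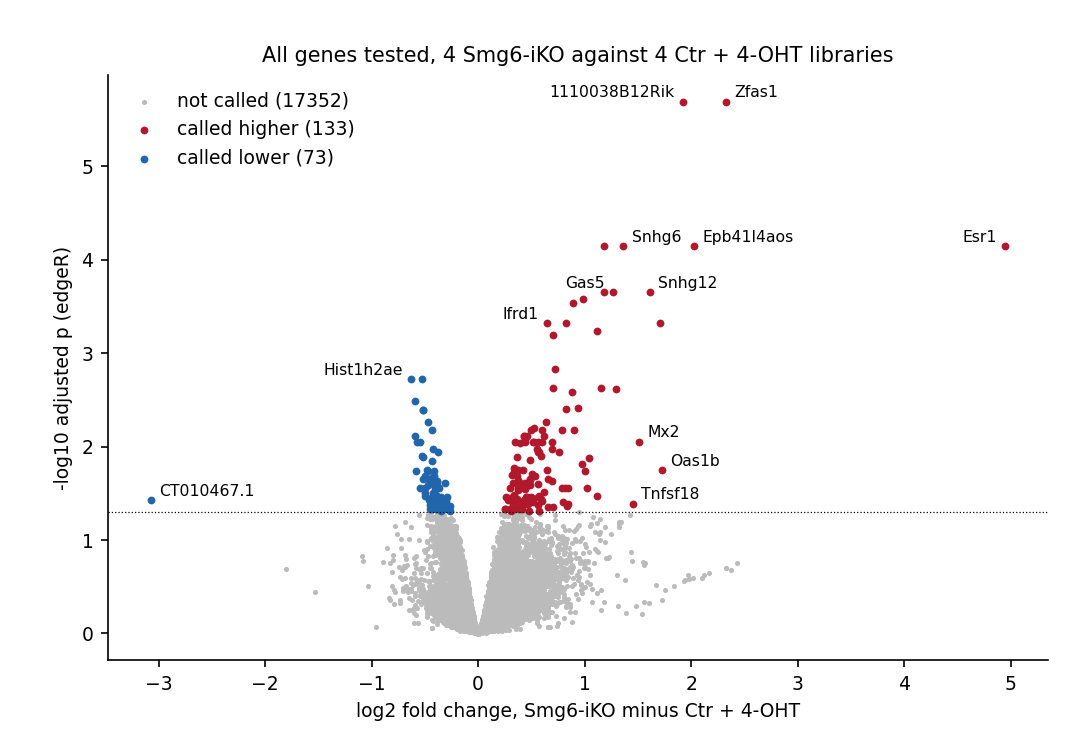
Each point is a gene tested, with the log2 fold change of Smg6-iKO over Ctr + 4-OHT on the x axis and -log10 of the adjusted p from edgeR on the y axis; the dotted line marks an adjusted p of 0.05. The DEGs that were higher (red) reach far beyond the 73 that were lower (blue), which lie between -0.63 and -0.27 except for CT010467.1 at -3.07.

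The gene that was targeted came first as a check of the labels. Smg6 (ENSMUSG00000038290, chromosome 11 from 74925823 to 75164448 on GRCm38) had 62.5, 62.3, 71.9 and 67.5 CPM in Smg6-iKO and 66.5, 72.0, 72.3 and 66.6 CPM in Ctr + 4-OHT. The groups overlapped, with a log2 fold change of -0.059 (SE 0.066, adjusted p = 0.703 from edgeR). Reads were summed over the whole gene, so the floxed exons could not be examined separately. Esr1, of which CreERT2 contains the ligand-binding part, had 513 reads in the 4 Smg6-iKO libraries and 15 in the 4 Ctr + 4-OHT libraries, and lay at 4.29 CPM on average in Ctr. Its reads per library were 106 to 149 in Smg6-iKO and 1 to 8 in Ctr + 4-OHT, so it passed the filter on low counts through Smg6-iKO. The libraries high in Esr1 were those whose labels give RosaCreER tg/+.

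Ctr carries CreERT2 and received no drug, so it differs from Ctr + 4-OHT in both Cre genotype and 4-OHT, which cannot be told apart between them. Gt(ROSA)26Sor, the non-coding transcript of the locus that carries the CreERT2 insertion, had 20.7, 21.9, 19.8 and 21.7 CPM in Smg6-iKO and 15.3, 13.2, 12.8 and 15.7 CPM in Ctr + 4-OHT. All Smg6-iKO libraries exceeded all controls (log2 fold change 0.57, SE 0.083, adjusted p = 0.0114 from edgeR). Ctr cells, with the insertion and with intact Smg6, had 20.3 ± 1.06 CPM (SD, n = 3), beside 14.2 ± 1.46 CPM (SD, n = 4) in Ctr + 4-OHT (adjusted p = 0.110 from edgeR in that comparison, in which 39 of 17665 genes, 0.221%, were called). Tnfsf18, a TNF family ligand, is a DEG (1.45, SE 0.28, adjusted p = 0.0407 from edgeR) with 1.45 ± 0.441 CPM (SD, n = 4) against 0.530 ± 0.166 CPM (SD, n = 4), yet Ctr had 2.14 ± 0.617 CPM (SD, n = 3) and stood above Ctr + 4-OHT too (adjusted p = 0.0320 from edgeR). Adamts4, a protease of proteoglycans, likewise had 27.7 CPM in Smg6-iKO, 20.7 CPM in Ctr + 4-OHT and 35.95 CPM in Ctr as group means, with an adjusted p of 0.0375 for the first pair and 0.00747 for the second (edgeR). Crispld2 (0.59) and Mfsd2a (-0.38), 2 DEGs picked after their values were seen, also differed between Ctr + 4-OHT and Ctr, by -1.09 and 0.60 on the log2 scale (adjusted p = 0.00877 and 0.0107 from edgeR). The calls of Tnfsf18 and Adamts4 against Ctr + 4-OHT were lost in 8 and 9 alternatives. For all of these genes the effect of the deletion and that of the Cre genotype cannot be told apart between Smg6-iKO and Ctr + 4-OHT. Within 5 Mb of Gt(ROSA)26Sor, 2 of 84 genes tested were higher, that gene and Tatdn2, and none was lower. With 1 library left out 0 to 2 were higher, with the call of Gt(ROSA)26Sor lost in 1 alternative and that of Tatdn2 in 3, and neither was called without SMH_133_plus_OHT. Within 5 Mb of Smg6, 1 of 174 was higher (Zzef1) and 1 lower (Pimreg), 0.575% each beside 0.757% and 0.416% of all genes tested. These 2 calls were lost in 8 and 7 alternatives, embryo sex in the model among them.

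The largest fall was that of CT010467.1 (ENSMUSG00000106106, chromosome 17 from 39846353 to 39848827), which is annotated as ribosomal RNA, a class that was depleted before the libraries were made. Its reads amounted to 80.4, 75.1, 146 and 116 CPM in Smg6-iKO and to 298, 263, 1554 and 1425 CPM in Ctr + 4-OHT, which did not overlap (log2 fold change -3.07, SE 0.58, adjusted p = 0.0375 from edgeR). In Ctr the same gene ranged from 48.8 to 1930 CPM. The call was lost in 9 alternatives, among them limma-voom. The Ctr libraries spanned all of the Smg6-iKO values, and within Ctr + 4-OHT SMH_125_plus_OHT and SMH_126_plus_OHT stood far below SMH_129_plus_OHT and SMH_131_plus_OHT. Whether depletion differed between the libraries was not tested.

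The snoRNA host genes made the largest group of strong rises. Of 20 hosts on the list, all of them tested, 10 rose and none fell, with a median log2 fold change of 0.78 over all 20 beside 0.01 over all genes tested. Leaving out 1 library at a time left 10 or 11 of them called, and 10 were called with embryo sex in the model. Their summed expression was 2750 to 3198 CPM in Smg6-iKO, 1031 to 1347 CPM in Ctr + 4-OHT and 1264 to 1320 CPM in Ctr. The untreated cells, whose CreERT2 had not been activated, thus stood with the Cre-negative ones.

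Many hosts are transcribed from a 5′ terminal oligopyrimidine (TOP) start, a C followed by a run of pyrimidines, which they share with the genes of ribosomal proteins. The annotated starts of the 8 hosts that rose and have an entry are shown, with and without such a run (for 1110038B12Rik 1 of 2 overlapping stretches, which hold the same run), next to that of Rpl12, so that the starts can be compared. Each stretch has 25 bases, begins 5 bases before the RefSeq start on GRCm38.p6 and reads 5′ to 3′ on the strand of the gene, and capitals mark a C within 5 bases of the start together with the pyrimidine run of at least 4 bases behind it.
Gas5 (chr1:161035161-161035185, plus strand): tcagCCTTTCggagctgtgcggcat
Gas5, other start (chr1:161034596-161034620, plus strand): cccgcgagctcgacagcccggagcc
Snhg12 (chr4:132308673-132308697, plus strand): agtCCTTTCTCgcttcatccgcggt
2410006H16Rik (chr11:62602872-62602896, plus strand): tCTTTCTCTgcggccatcatgggat
Snhg8 (chr3:123508317-123508341, minus strand): gaagtCTCTTTggctgcgatccgcc
1110038B12Rik (chr17:34952449-34952473, minus strand): cgggtCTCTTTgtgcacccgcccac
Zfas1 (chr2:167062929-167062953, plus strand): cccgggcggccgcaggtctcggctg
Snhg1 (chr19:8723482-8723506, plus strand): tcggcctcatttttccttgttcggg
Snhg5 (chr9:88522878-88522902, minus strand): gaaccgggctcgttcttttacgacg
Rpl12 (chr2:32961707-32961731, plus strand): gatccgtCTTTTCggctttcggctc
Among the hosts that rose and had an entry, 5 of 8 (62.5%) had such a run at 1 of their starts, and Zfas1, which rose most, Snhg1 and Snhg5 did not. Of the hosts that were not called, 4 of 10 had one. The run was present in 2767 of 11587 tested genes with an entry (23.9%) and in 6027 of all 32851 promoters (18.3%), and its share was 22.6% in the genes that rose (24 of 106) and 23.3% in those that fell (7 of 30). These are matches of letters at annotated starts, which can lie several bases from the start used in these cells.

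Zfas1, a non-coding antisense transcript of the Znfx1 locus, had 329.9, 389, 358 and 367 CPM in Smg6-iKO and 69.0, 82.3, 76.8 and 61.2 CPM in Ctr + 4-OHT. It was 5.03-fold higher (log2 fold change 2.33, SE 0.094, adjusted p = 2.02e-06 from edgeR), and Ctr had 79.2 ± 5.53 CPM (SD, n = 3). Per length of its exons, its level went from 24.7 to 123 RPKM. The lowest deleted library thus lay well above every control, treated or not.

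The next in size were Epb41l4aos, 1110038B12Rik and 2410006H16Rik. Epb41l4aos had 85.5, 114, 91.16 and 90.97 CPM in Smg6-iKO against 21.1, 28.3, 25.8 and 19.0 CPM in Ctr + 4-OHT, a 4.08-fold rise (2.03, SE 0.13, adjusted p = 7.12e-05 from edgeR). 1110038B12Rik had 253, 289, 255 and 268 CPM against 68.9, 78.5, 74.0 and 61.5 CPM, a 3.79-fold rise (1.92, SE 0.080, adjusted p = 2.02e-06 from edgeR). 2410006H16Rik had 380.2, 494, 422 and 432 CPM against 95.6 to 161 CPM, a 3.26-fold rise (1.70, SE 0.15, adjusted p = 0.000473 from edgeR), and its level per exon length, 289 RPKM in Ctr + 4-OHT and 935 RPKM in Smg6-iKO, was above that of Zfas1. In each of these genes SMH_125_plus_OHT and SMH_131_plus_OHT were the lowest controls and SMH_128_plus_OHT the highest deleted library.

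Gas5, named for its accumulation in growth arrest and a long-known NMD substrate, had 683, 786, 704 and 681 CPM in Smg6-iKO and 275, 338, 324 and 255 CPM in Ctr + 4-OHT. It was 2.41-fold higher (log2 fold change 1.27, SE 0.096, adjusted p = 0.000223 from edgeR), and the groups were far apart, with 333 ± 9.74 CPM (SD, n = 3) in Ctr. Snhg12 had 116, 137.5, 119 and 119 CPM against 37.4, 48.9, 44.2 and 31.2 CPM, which is 3.06-fold (1.61, SE 0.13, adjusted p = 0.000223 from edgeR). Snhg6 rose 2.57-fold to 130 ± 12.01 CPM from 50.9 ± 5.30 CPM (SD, n = 4 each), with an adjusted p of 7.12e-05 from edgeR. Snhg1 (1.18), Snhg8 (1.11) and Snhg5 (0.99) complete the hosts that rose.

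The list was divided, because the other 10 hosts were not called. Snhg15 (0.56, SE 0.21, adjusted p = 0.210 from edgeR) had 37.9 to 47.8 CPM in Smg6-iKO and 20.2 to 39.5 CPM in Ctr + 4-OHT, and the groups overlapped. Snhg17 (0.33, SE 0.076, adjusted p = 0.0722 from edgeR) had 65.6 to 74.9 CPM against 52.2 to 62.5 CPM without overlap. Snhg10, Snhg11 and Snhg14 had log2 fold changes between 0.30 and 0.44, whereas Snhg20 (0.06), Snhg18 (0.00), Snhg3 (-0.06), Snhg9 (-0.10) and Dancr (-0.10) lay close to 0.

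The snoRNAs themselves gave no call. Of 111 tested snoRNA and 15 tested scaRNA genes none was called by edgeR, 8 had an unadjusted p under 0.05 (2930 of all 17558 genes tested did), and DESeq2 called 0 as well. Of these, 117 lie inside a tested host, and 7 lie in 5 genes that rose, with mean levels of 0.35 to 3.20 CPM. Of the 10 hosts described above, 3 hold a tested snoRNA. The other 2 of the 5 genes are coding and on no list of hosts, Rnf149 (0.43, with Gm23722 at -0.51) and Rabggtb (0.45, with Gm24494 at 0.08). In 2410006H16Rik, itself 3.26-fold higher, Snord49a, Snord49b and Snord65 stood at 0.13, -0.09 and -0.15. Snord87 in Snhg6 stood at -0.13, and Gm23639 in Epb41l4aos at -0.46 (adjusted p = 0.180 from edgeR). The 7 snoRNAs lie outside the exons of their hosts, and libraries of this kind capture RNAs of their size poorly.

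Among coding genes known as NMD targets, a list chosen with earlier results of these data known, 9 of 22 tested rose and none fell. Their median log2 fold change was 0.30, and 19 of 22 were above 0. With 1 library left out between 4 and 7 were called, 4 without SMH_132_plus_OHT or SMH_133_plus_OHT and 5 without SMH_125_plus_OHT, SMH_131_plus_OHT or SMH_127_plus_OHT, and 5 with embryo sex in the model. Rps12 and Rpl12, proteins of the small and large ribosomal subunit, had the largest fold changes among the 9 that were called. Rps12 had 34.2, 41.5, 37.1 and 42.8 CPM in Smg6-iKO against 22.9, 22.6, 24.2 and 18.6 CPM in Ctr + 4-OHT (log2 fold change 0.83, SE 0.098, adjusted p = 0.00395 from edgeR). Rpl12 had 59.5, 72.4, 65.1 and 67.4 CPM against 35.9, 44.3, 41.8 and 32.6 CPM (0.78, SE 0.10, adjusted p = 0.00661 from edgeR). Rpl10a rose too (0.44, SE 0.075, adjusted p = 0.0243 from edgeR). These 3 were the only DEGs among 80 tested ribosomal protein genes, whose median was -0.07. The call of Rpl10a was lost in 6 alternatives and those of Rps12 and Rpl12 in 0. Of the starts of ribosomal protein genes, 28 of 57 uncalled ones (49.1%) and 1 of 3 called ones (33.3%) had the pyrimidine run. Genes of ribosomal proteins have many near-identical pseudogenes, and reads that map to several places were not counted, so these levels are uncertain.

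Pign, an enzyme of GPI anchor synthesis, had 80.1, 101, 87.4 and 92.1 CPM in Smg6-iKO and 52.3, 54.7, 60.3 and 55.6 CPM in Ctr + 4-OHT (log2 fold change 0.70, SE 0.077, adjusted p = 0.00234 from edgeR). Ifrd1, a transcriptional regulator with an upstream reading frame, had 86.2, 85.3, 77.4 and 82.1 CPM against 54.5, 50.3, 55.5 and 52.5 CPM (0.65, SE 0.057, adjusted p = 0.000473 from edgeR). Both groups were tight in Ifrd1, and Ctr had 49.4 ± 1.87 CPM (SD, n = 3). Atf4, the transcription factor of the integrated stress response, also with upstream reading frames, had 399, 418, 349 and 389 CPM against 297, 322, 314 and 268 CPM (0.38, SE 0.075, adjusted p = 0.0407 from edgeR), a call lost whichever library was left out, as was that of Hnrnpdl. Tatdn2 (0.49), the stress gene Gadd45g (0.47) and the splicing factor Hnrnpdl (0.26) also rose. Its relative Gadd45b, with 10.2 to 13.9 CPM against 7.18 to 12.5 CPM, overlapped between the groups (0.39, SE 0.19, adjusted p = 0.327 from edgeR), and Robo3, an axon guidance receptor, did not overlap but stayed above the threshold (0.90, SE 0.22, adjusted p = 0.0794 from edgeR). Of 20 tested target genes of ATF4, none was called, with a median of 0.02.

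Among 13 NMD factors, 3 rose and none fell, with a median of 0.10. Smg5 had 133.8, 133.7, 132.5 and 143 CPM in Smg6-iKO and 113, 104, 106 and 116 CPM in Ctr + 4-OHT (log2 fold change 0.32, SE 0.052, adjusted p = 0.0202 from edgeR). The kinase Smg1 had 346 ± 13.54 CPM against 285 ± 10.8 CPM (0.30, SE 0.055, adjusted p = 0.0358 from edgeR), and its partner Smg9 had 39.5 ± 3.26 CPM against 31.0 ± 0.453 CPM (0.36, SE 0.068, adjusted p = 0.0363 from edgeR; SD, n = 4 each). Upf1 (0.24, adjusted p = 0.220) and Upf2 (0.24, adjusted p = 0.242) overlapped between the groups (edgeR). Smg8, the other partner of SMG1, had 22.6 to 24.1 CPM against 26.3 to 26.95 CPM (-0.17, SE 0.055, adjusted p = 0.159 from edgeR). No NMD factor was a DEG once embryo sex was in the model, and 0 to 2 were with 1 library left out. Summed over the list, expression was 1193 to 1219 CPM in Smg6-iKO and 1052 to 1114 CPM in Ctr + 4-OHT.

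Other families with transcripts known to be sensitive to NMD stood near 0 at the level of whole genes. None of 13 SR proteins (median 0.04), 10 components of the exon junction complex (-0.04) or 21 selenoprotein genes (-0.03) was called, and of 28 hnRNP and splicing kinase genes only Hnrnpdl was (0.02). Counts were summed over each gene, so a change in the share of a poison exon could not be seen.

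**Figure D2:**
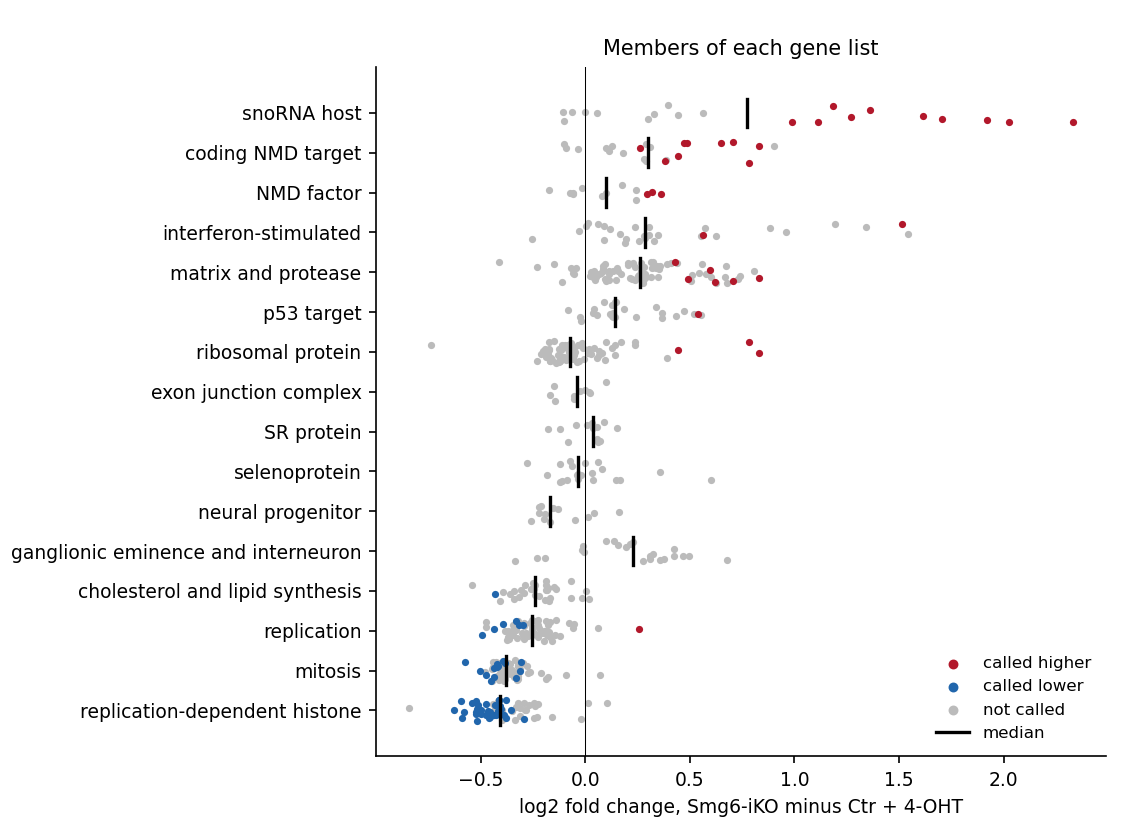
Each point is a tested gene of 1 of 16 gene lists, placed by its log2 fold change of Smg6-iKO over Ctr + 4-OHT on the x axis; coloured points are DEGs and black bars are list medians. The snoRNA hosts reach 2.33 with a median of 0.78, whereas the replication-dependent histones and the genes of mitosis lie to the left of 0 with medians of -0.41 and -0.38.

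By annotated class, 109 of 13933 protein-coding genes rose (0.782%) and 70 fell (0.502%). Of 1425 long non-coding genes 19 rose (1.33%) and 2 fell (0.14%). Polymorphic pseudogenes, which are broken in the reference strain and intact in others, were picked out after the values were seen. Only 9 of the 82 in the files passed the filter on low counts, and 3 DEGs, Mx2, Pcdhgb8 and Atp10d, were among them besides Oas1b. A gene that is counted in 1 group only can pass that filter through this group, so no share is read from these numbers.

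Mx2, an interferon-induced GTPase, had 3.65, 5.17, 5.43 and 3.64 CPM in Smg6-iKO and 1.30, 1.72, 2.00 and 1.24 CPM in Ctr + 4-OHT (log2 fold change 1.51, SE 0.21, adjusted p = 0.00882 from edgeR). Oas1b, of the oligoadenylate synthetase family, was counted with 18, 17, 19 and 14 reads against 6, 4, 5 and 4 reads, and since it passed the filter on low counts through Smg6-iKO no test is given for it. Pcdhgb8, a clustered protocadherin, had 6.77, 6.64, 7.47 and 7.34 CPM against 3.80, 3.98, 3.94 and 3.71 CPM (0.88, SE 0.098, adjusted p = 0.00260 from edgeR). Atp10d, a phospholipid flippase, had 11.3 ± 0.597 CPM against 8.10 ± 0.490 CPM (SD, n = 4 each; 0.49, SE 0.085, adjusted p = 0.0256 from edgeR). The call of Atp10d was lost in 7 alternatives and those of Mx2 and Pcdhgb8 in 0. In Mx2, Pcdhgb8 and Atp10d the groups were separate. The Ctr means of Mx2, Oas1b, Pcdhgb8 and Atp10d were 2.62, 0.329, 4.20 and 7.91 CPM. They lay between the groups for Mx2, Oas1b and Pcdhgb8 and just below Ctr + 4-OHT for Atp10d. The embryos were of mixed C57BL/6 and 129SV origin, and which allele each carried at these genes was not tested.

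Of 29 tested interferon-stimulated genes, 2 rose, Mx2 and Helz2, a nuclear coactivator (0.56, SE 0.11, adjusted p = 0.0425 from edgeR), and none fell. With 1 library left out 1 or 2 rose, and 1 with embryo sex in the model, since the call of Helz2 was lost in 9 alternatives and that of Mx2 in 0. The median was 0.28, and 27 of 29 were above 0. Their summed expression was 272 to 292 CPM in Smg6-iKO, 223 to 268 CPM in Ctr + 4-OHT and 283 to 337 CPM in Ctr, so that Smg6-iKO overlapped with the untreated cells. Usp18, which restrains interferon signalling, had 0.758 to 1.33 CPM in Smg6-iKO against 0.291 to 0.601 CPM in Ctr + 4-OHT, beside 1.43 ± 1.01 CPM (SD, n = 3) in Ctr. It passed the filter on low counts through Smg6-iKO, so no test is given for it. Ifit2 had a value of -0.26 (adjusted p = 0.220 from edgeR).

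Of the genes that rose, 100 were on no list. Aox1, an aldehyde oxidase, was among the 12 largest rises, with 4.58, 4.88, 4.89 and 4.08 CPM in Smg6-iKO against 1.49, 1.92, 2.16 and 1.94 CPM in Ctr + 4-OHT (log2 fold change 1.30, SE 0.14, adjusted p = 0.00243 from edgeR). The following were chosen after the values were seen, from unlisted rises with a small p but not strictly in order of p. Gm16973, a long non-coding RNA, had 24.4, 21.5, 20.2 and 22.6 CPM against 10.2, 9.57, 9.47 and 10.1 CPM (1.18, SE 0.078, adjusted p = 7.12e-05 from edgeR), and Ctr had 10.0 ± 0.365 CPM (SD, n = 3). Xkr6, a membrane protein of the XK family, had 28.8 ± 2.01 CPM against 15.7 ± 0.775 CPM (0.89, adjusted p = 0.000288 from edgeR), and Prmt6, an arginine methyltransferase that modifies histone H3, had 61.0 ± 3.35 CPM against 37.8 ± 2.25 CPM (0.70, adjusted p = 0.000638 from edgeR; SD, n = 4 each). Syt6, a synaptotagmin, stood at 1.15 (adjusted p = 0.00234 from edgeR), and the RNA-editing enzyme Apobec1 at 0.94 (adjusted p = 0.00389 from edgeR), with 68.2 CPM against 35.9 CPM as group means and 55.6 CPM in Ctr. In these 6 genes every Smg6-iKO library was above every Ctr + 4-OHT library.

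**Figure D3:**
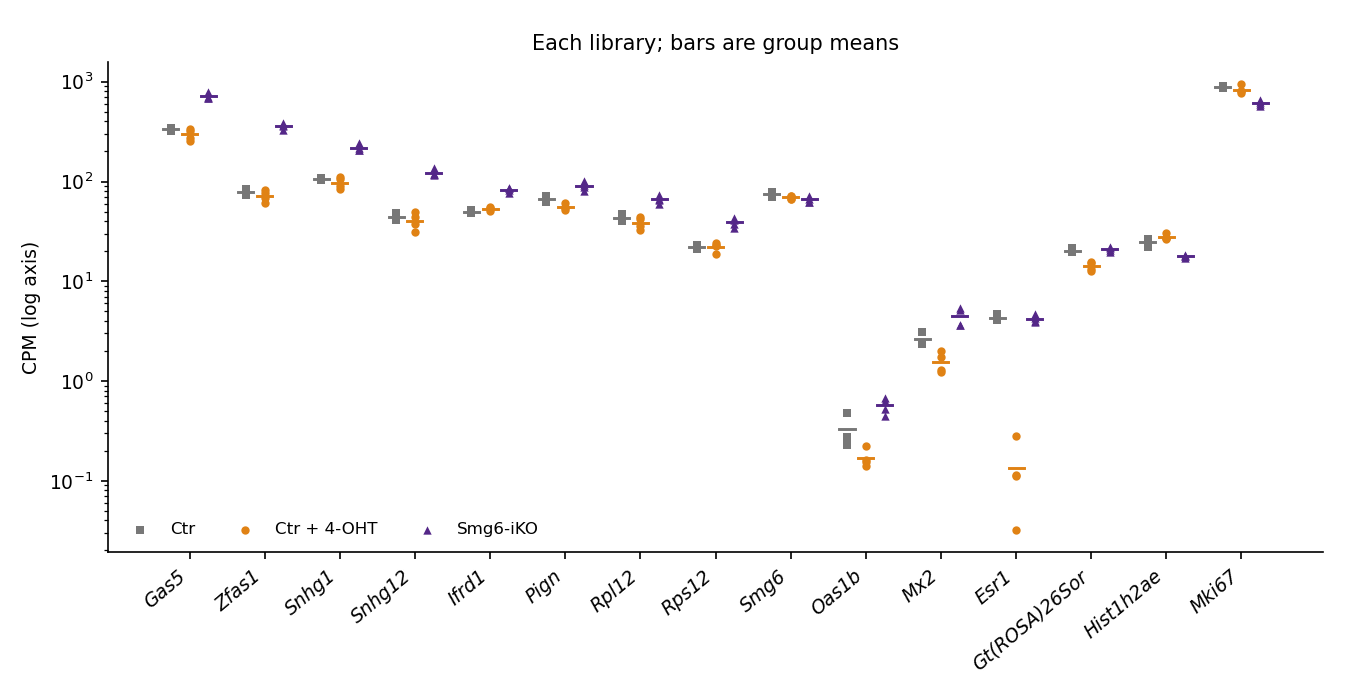
Expression in CPM (log axis) of 15 genes in every library of Smg6-iKO, Ctr + 4-OHT and Ctr, with points for libraries and bars for group means. For the snoRNA hosts, Ifrd1, Pign, Rpl12 and Rps12 the Smg6-iKO points stand above both control groups, whereas for Esr1 and Gt(ROSA)26Sor they stand with Ctr.

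The falls were led by replication-dependent histones, the genes made in S phase whose mRNAs end in a stem-loop in place of a poly(A) tail. Of 58 tested genes 32 fell and none rose, with a median log2 fold change of -0.41, and 56 of 58 were below 0. Their summed expression was 4492 to 5094 CPM in Smg6-iKO, 5918 to 6650 CPM in Ctr + 4-OHT and 6039 to 7013 CPM in Ctr. With 1 library left out between 10 and 29 fell (10 without SMH_127_plus_OHT or SMH_132_plus_OHT, 18 without SMH_131_plus_OHT, 21 without SMH_125_plus_OHT or SMH_133_plus_OHT), and 21 with embryo sex in the model. Clustered histone genes are alike in sequence, and reads that map to several of them were not counted, so single members are uncertain.

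Hist1h2ae, which encodes H2A, had 18.14, 18.04, 17.03 and 18.0 CPM in Smg6-iKO and 26.98, 26.4, 30.4 and 27.2 CPM in Ctr + 4-OHT (log2 fold change -0.63, SE 0.066, adjusted p = 0.00191 from edgeR). Hist1h2bk, for H2B, had 60.9, 68.7, 61.1 and 70.2 CPM against 101.5, 86.9, 109 and 99.4 CPM (-0.60, SE 0.079, adjusted p = 0.00763 from edgeR). Hist1h2ab, for H2A, had 80.3, 86.4, 79.5 and 86.6 CPM against 122.4, 113.4, 127.6 and 118.9 CPM (-0.52, SE 0.055, adjusted p = 0.00187 from edgeR). In all 3 the groups were separate and the Ctr means, 24.6, 95.6 and 118 CPM, were above every deleted library.

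The histone classes differed in how many passed. For H2A 11 of 13 fell (median -0.46), for H3 8 of 11 (-0.41), for H2B 8 of 16 (-0.41), for the linker H1 3 of 6 (-0.41) and for H4 2 of 12 (-0.32). In the large Hist1 cluster on chromosome 13, 31 of 48 fell, and in Hist2 1 of 7 did, Hist2h2ac (-0.52, adjusted p = 0.00403 from edgeR). Differences between the classes were not tested.

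The 3′ stem-loop was looked for in the annotated transcripts, since it is the element that sets these mRNAs apart, and 4 examples are given on GRCm38, 5′ to 3′ on the strand of the gene, with the stem-loop in capitals.
Hist1h2ab (chr13:23751567-23751592, plus strand): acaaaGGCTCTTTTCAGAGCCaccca
Hist1h4a (chr13:23760795-23760820, minus strand): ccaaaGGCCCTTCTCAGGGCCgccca
Hist1h1t (chr13:23696520-23696545, plus strand): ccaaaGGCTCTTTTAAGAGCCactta
H2afx (chr9:44335235-44335260, plus strand): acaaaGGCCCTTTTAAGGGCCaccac
A match was found in 40 of the 58 histone genes, of which 22 fell, and none in 18, of which 10 fell. The medians were -0.40 with a match and -0.41 without, so the matched and unmatched genes had much the same values, and annotation that stops short of the stem-loop gives no match. Hist1h4a, with a match, had 48.6 to 58.2 CPM against 57.3 to 71.6 CPM and was not called (-0.34, adjusted p = 0.0914 from edgeR), and the testis-specific Hist1h1t stood at 0.10 with less than 0.52 CPM in each of the 8 libraries. Outside the list 15 of 13869 coding genes matched (0.108%). One of them was H2afx, the H2A variant phosphorylated at DNA breaks, which can be made with a stem-loop or a poly(A) tail. It fell as well, with 99.2, 91.97, 94.6 and 98.9 CPM against 119, 111.5, 129.3 and 132.7 CPM (-0.34, SE 0.064, adjusted p = 0.0350 from edgeR), a call lost with embryo sex in the model and whichever library was left out, except SMH_126_plus_OHT. Slbp, the stem-loop binding protein, had 42.8 to 46.5 CPM against 49.4 to 53.5 CPM (-0.21, SE 0.055, adjusted p = 0.0958 from edgeR).

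**Figure D4:**
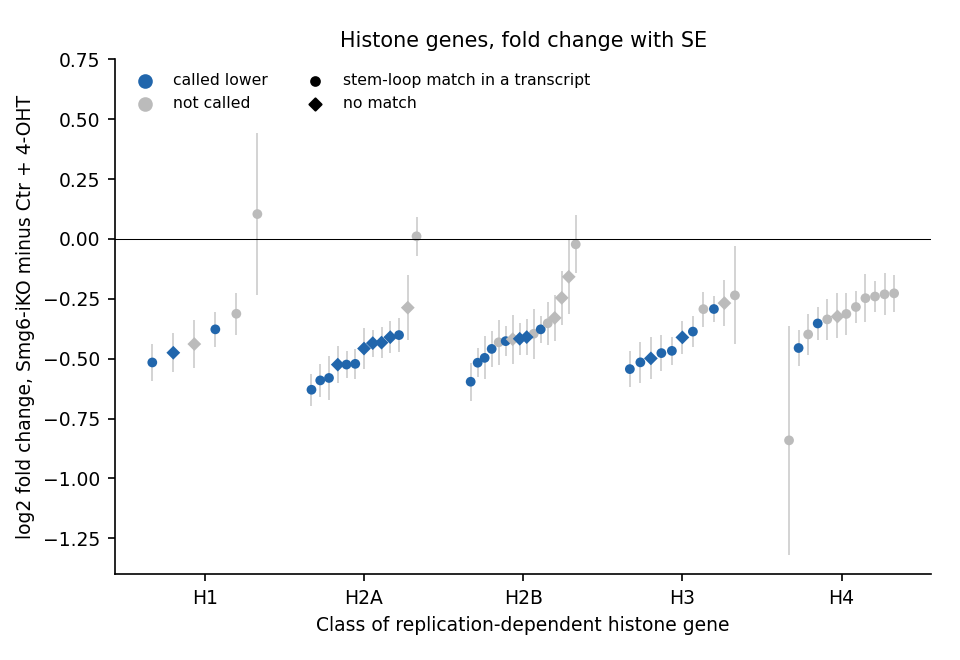
Log2 fold change of Smg6-iKO over Ctr + 4-OHT with its standard error for 58 replication-dependent histone genes, by class; blue marks DEGs that were lower, circles a stem-loop match and diamonds none. Most H2A genes are blue (11 of 13) and most H4 genes are not (2 of 12), and 56 of 58 points are below 0.

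Of 72 tested genes of mitosis 14 fell, none rose and 58 were not called, with a median log2 fold change of -0.38. In all, 71 of 72 were below 0 and 68 had an unadjusted p under 0.05 (edgeR), beside 2930 of all 17558 genes tested in either direction. When 1 library was left out between 1 and 15 fell (1 without SMH_131_plus_OHT, SMH_127_plus_OHT, SMH_132_plus_OHT or SMH_133_plus_OHT, and 9 without SMH_125_plus_OHT), and 1 fell with embryo sex in the model. More fell by the DESeq2 Wald test (64), with all libraries in 1 fit (52), with no filter on low counts (57) and with the length trend removed (30). Summed expression was 7402 to 8532 CPM in Smg6-iKO, 9346 to 11750 CPM in Ctr + 4-OHT and 10100 to 10500 CPM in Ctr. In bulk RNA, fewer cells in division and less of these RNAs per cell cannot be told apart.

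Pbk, a mitotic kinase, had 58.2, 65.0, 53.6 and 56.5 CPM in Smg6-iKO and 83.5, 80.1, 97.9 and 88.1 CPM in Ctr + 4-OHT (log2 fold change -0.57, SE 0.079, adjusted p = 0.00882 from edgeR). Mki67, the marker of cycling cells, had 619, 663, 605 and 570.4 CPM against 765, 804, 941 and 809 CPM (-0.42, SE 0.079, adjusted p = 0.0358 from edgeR). SMH_129_plus_OHT was the highest control and the groups were separate in both. Cyclin A2 (Ccna2, -0.45), cyclin B1 (Ccnb1, -0.44), their kinase Cdk1 (-0.42), the kinetochore component Nuf2 (-0.47), the centromere factor Oip5 (-0.50), the kinesin Kif4 (-0.42) and the centriole kinase Plk4 (-0.38) also fell. Foxm1, which drives transcription of many of these genes, had 52.2 to 56.3 CPM against 58.8 to 84.1 CPM (-0.38, SE 0.097, adjusted p = 0.0954 from edgeR).

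Of 62 genes of DNA replication, 6 fell and 1 rose, with a median of -0.26, and 60 were below 0. With 1 library left out between 0 and 14 fell (0 without SMH_131_plus_OHT, SMH_127_plus_OHT or SMH_132_plus_OHT, 1 without SMH_133_plus_OHT, 2 without SMH_129_plus_OHT or SMH_128_plus_OHT, 14 without SMH_126_plus_OHT), and 0 with embryo sex in the model, whereas 34 fell by the DESeq2 Wald test, 25 with all libraries in 1 fit, 19 with no filter and 21 with the length trend removed. Gmnn, the licensing inhibitor geminin, had 17.2, 19.4, 17.4 and 18.8 CPM against 24.0, 23.7, 28.5 and 27.1 CPM (-0.50, SE 0.081, adjusted p = 0.0205 from edgeR). Dbf4, which activates the kinase CDC7, fell by 0.44, the helicase subunit Mcm3 by 0.33 and the clamp loader subunit Rfc2 by 0.30 on the log2 scale. The gene that rose was Orc4 of the origin recognition complex, with 69.8 to 75.8 CPM against 59.2 to 63.5 CPM (0.26, SE 0.052, adjusted p = 0.0469 from edgeR). No gene of the list rose when any 1 library was left out or with embryo sex in the model.

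Among 8 CDK inhibitors Cdkn2c fell, with 39.8, 48.9, 43.2 and 40.5 CPM against 55.5, 53.8, 63.0 and 57.3 CPM (-0.41, SE 0.079, adjusted p = 0.0409 from edgeR). Cdkn1a, the p53 target p21, had 172 to 235 CPM against 107 to 197 CPM and overlapped (0.37, SE 0.20, adjusted p = 0.391 from edgeR), as did Trp53 itself (0.17, adjusted p = 0.514 from edgeR). Of 25 tested p53 targets 22 were above 0 with a median of 0.14, and 1 rose, Aifm2, a ubiquinone oxidoreductase (0.54, SE 0.088, adjusted p = 0.0207 from edgeR). The calls of Cdkn2c and Aifm2 were lost with embryo sex in the model and in 8 and 6 alternatives in all, among them the fits without SMH_125_plus_OHT, SMH_127_plus_OHT, SMH_132_plus_OHT or SMH_133_plus_OHT.

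**Figure D5:**
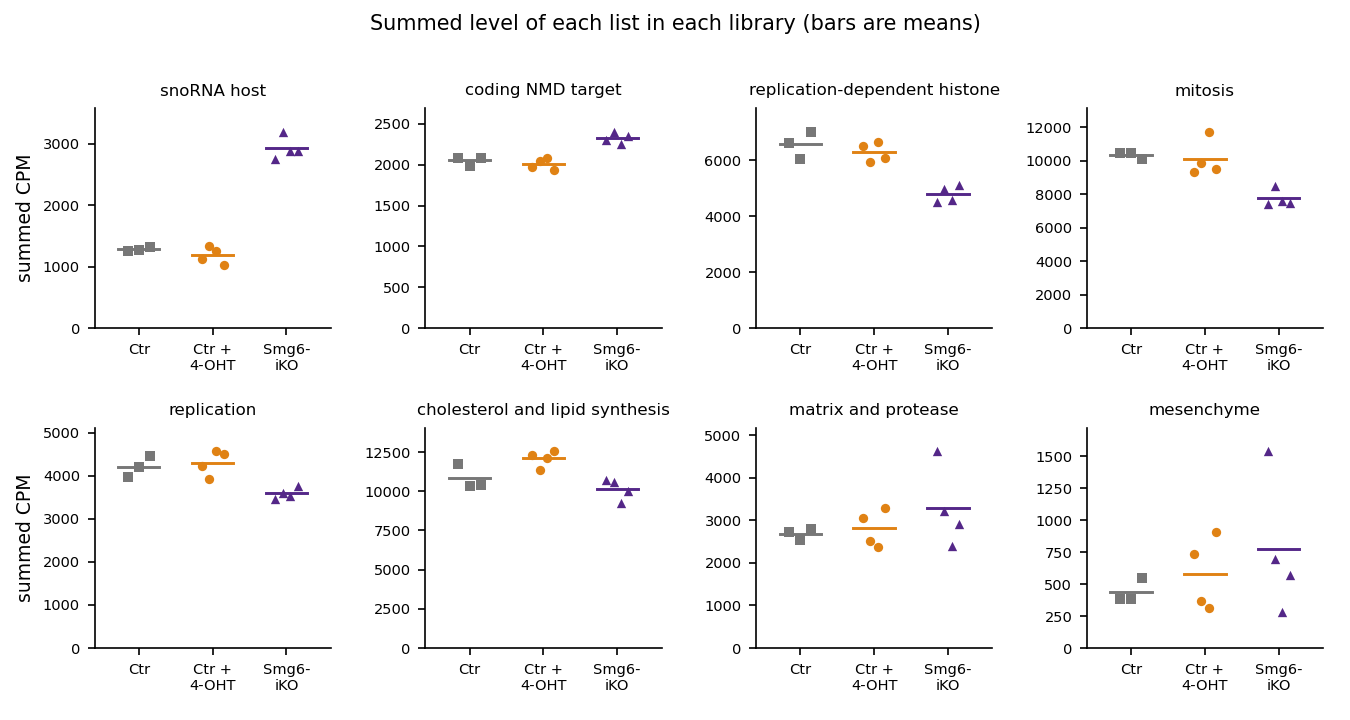
Summed expression in CPM per library over the genes of 8 lists for Smg6-iKO, Ctr + 4-OHT and Ctr. The Smg6-iKO libraries are above all others for the snoRNA hosts (2750 to 3198 CPM) and below all others for mitosis (7402 to 8532 CPM), whereas for matrix genes and mesenchymal markers the groups overlap.

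Of 80 tested genes of extracellular matrix and its proteases 6 rose and none fell, with a median of 0.26. Adamts6 had 73.1, 85.9, 73.0 and 71.0 CPM in Smg6-iKO against 48.7, 49.9, 56.8 and 46.1 CPM in Ctr + 4-OHT (log2 fold change 0.60, SE 0.082, adjusted p = 0.00882 from edgeR). Col18a1, a collagen of basement membranes, had 203, 183, 151 and 154 CPM against 101, 111, 107 and 133.4 CPM (0.62, SE 0.11, adjusted p = 0.0305 from edgeR). Mmp2 (0.70), Adamts14 (0.83), Col5a3 (0.49) and Adamts4 rose as well, and with 1 library left out 1 (without SMH_127_plus_OHT or SMH_133_plus_OHT) to 4 of the list were called, at most 3 except without SMH_132_plus_OHT. With embryo sex in the model 2 were called. The call of Col18a1 was lost in 8 alternatives and that of Adamts6 in 0. Mesenchymal markers, 6 genes of which none was called, had a median of 0.42 and summed to 282 to 1539 CPM in Smg6-iKO and 316 to 910.3 CPM in Ctr + 4-OHT, with SMH_127_plus_OHT highest. The part of such cells in the matrix values was not tested.

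Of 33 genes of cholesterol and lipid synthesis 31 were below 0 with a median of -0.24, but 1 fell, Acss2, which makes acetyl-CoA from acetate (-0.43, SE 0.083, adjusted p = 0.0403 from edgeR). Their summed expression, 9225 to 10730 CPM in Smg6-iKO, 11360 to 12560 CPM in Ctr + 4-OHT and 10340 to 11730 CPM in Ctr, overlapped between deleted and untreated cells but not between deleted and treated controls. Among 18 immediate-early genes Junb rose (0.47, SE 0.092, adjusted p = 0.0407 from edgeR). The calls of Acss2 and Junb were lost in 7 and 9 alternatives, among them embryo sex in the model and the fits without SMH_125_plus_OHT, SMH_129_plus_OHT, SMH_131_plus_OHT, SMH_127_plus_OHT, SMH_132_plus_OHT or SMH_133_plus_OHT.

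Genes of neural identity gave few calls. None of 13 neural progenitor genes was called (median -0.17), nor any of 23 genes of the ganglionic eminence and interneurons (0.23), 13 of the dorsal cortex, 9 of neurons, 7 of astrocytes or 6 of the oligodendrocyte lineage. In the Notch pathway, which keeps progenitors undifferentiated, 1 of 19 fell, the feedback regulator Nrarp, with 32.9, 36.8, 33.2 and 34.1 CPM against 41.5, 41.6, 44.6 and 42.2 CPM (-0.30, SE 0.059, adjusted p = 0.0407 from edgeR). This call was lost with embryo sex in the model and whichever library was left out, except SMH_128_plus_OHT. Hes5, a direct Notch target, had 26.4, 38.2, 33.2 and 29.6 CPM in Smg6-iKO and 43.4, 52.3, 66.7 and 43.7 CPM in Ctr + 4-OHT, separate but not called (-0.69, SE 0.15, adjusted p = 0.0647 from edgeR), beside 77.4 ± 19.4 CPM (SD, n = 3) in Ctr. Dlx1 (0.31, adjusted p = 0.244) and Dlx2 (0.38, adjusted p = 0.421), transcription factors of the ventral forebrain, overlapped between the groups (edgeR). Gfap, the astrocyte filament, varied from 5.14 to 78.2 CPM within Ctr + 4-OHT alone.

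In gene structure, of the genes that fell 32 of 73 (43.8%) had a single exon block, beside 2808 of all 17558 tested, but 3 of 41 (7.32%) without the histones. Among the genes that rose 6 did (4.51%): Atf4, Magel2, Tcim, Snhg1, Snhg8 and Zfas1. Chromosome 13 held 34 of the 73 genes that fell, 31 of them in the Hist1 cluster. The number of genes tested there was not set beside this count, so no share is read from it. Most differences were small: 61 of the rises and 58 of the 73 falls were below 0.5 on the log2 scale, and the smallest difference called was 0.25.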

How the data were processed

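Total RNA of NPC cultures was depleted of ribosomal RNA and sequenced as stranded single reads. The deposited files hold raw read counts per gene, which the authors made with STAR 2.5.4b on GRCm38 and featureCounts 1.5.0 with Ensembl release 92 after bcl2fastq 1.8.4, keeping uniquely mapped reads on the gene's strand and leaving out reads that overlap several genes. Groups came from the sample labels. The 4 Smg6-iKO and 4 Ctr + 4-OHT libraries were fitted with edgeR 4.0.16 (filterByExpr, TMM, quasi-likelihood test, R 4.3.3), and p-values were adjusted by Benjamini-Hochberg over the 17558 genes tested, with a threshold of 0.05. SE is the log2 fold change over the square root of F. Ctr + 4-OHT was compared with Ctr in the same way. CPM were scaled over all 11 libraries. Total counts were 26418249 to 33756875 per library, and no pair of libraries of the same group agreed within sampling noise. Pairs from different groups were not compared. Within each group every library came from a different embryo, by the study's description.

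Named genes were Smg6, fixed NMD, cell cycle and neural genes, the 12 largest rises, the 12 largest falls with at most 3 histones, both without overlap between the groups, and up to 4 DEGs with the smallest p of each of 34 lists. Other members of a list named to fill in its account were chosen after their values were seen. Members and lists were chosen with earlier results of these data known. On counts simulated for Smg6-iKO against Ctr + 4-OHT (17328 genes) 96% of genes changed by 1 on the log2 scale were recovered and 5.3% of calls were false. The changed genes were drawn from those with higher counts and were changed by 1 or 2 only. Recovery of smaller differences, which make up most of the calls, and of genes with few reads was therefore not simulated. Alternatives were DESeq2 1.42.0, limma 3.58.1 (voom), other scalings and filters, a fit of all libraries and each library left out. A few results are not reported here. Embryo sex as a covariate was added after seeing the data.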

Additional observations from a re-analysis of the deposited data

Results flagged for a closer look

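In 232 sets of 4 libraries (a named gene or a list sum in 1 group), 13 had 1 library far from the other 3, and chance alone gives about 1 in 20. SMH_128_plus_OHT stood apart among the Smg6-iKO libraries in 8 of them. Its Ccna2 was 236.3 CPM (others 194.7 to 198.1), Dbf4 78.48 CPM (66.79 to 67.99), Adamts6 85.85 CPM (71.03 to 73.12) and Snhg12 137.5 CPM (115.7 to 119.1), all higher than the others. Its Trp53 was 39.71 CPM (others 47.15 to 48.28) and its Dlx2 3.227 CPM (5.785 to 6.075), both lower. Summed over lists, its histone variants and regulators reached 1803 CPM (others 1692 to 1708) and its snoRNAs 1005 CPM (1116 to 1134). SMH_133_plus_OHT was high for Mcm3, with 108.4 CPM (98.5 to 99.14), and for Smg5, with 143.4 CPM (132.5 to 133.8). SMH_132_plus_OHT was low for Hist1h2ae, with 17.03 CPM (18.0 to 18.14). In Ctr + 4-OHT, SMH_129_plus_OHT was high for Dbf4, with 110.7 CPM (90.49 to 91.19), and for Kif4, with 147.3 CPM (125.4 to 128.8).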

How the results depend on the processing

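The 58 DEGs among the named genes kept their direction in all 1039 refits, though in 255 of these they were no longer called, and 22 of them were called under every alternative. Calls varied with the method. Against 206 DEGs (73 of them lower), the DESeq2 Wald test gave 880 (387 higher and 493 lower), all libraries in 1 fit 484 (243 and 241), no filter on low counts 418 (234 and 184), embryo sex as a covariate 82 (60 and 22), and leaving out 1 library 66 to 174 (47 to 100 and 11 to 74). Removal of the length trend gave 156 lower. Ctr + 4-OHT against Ctr gave 39 DEGs, and 168, 60 and 198 by DESeq2, with all libraries and with no filter, and 5 to 54 with 1 library left out. Mitosis genes that fell (14) became 64 by DESeq2, 52 with all libraries, 57 with no filter, 30 with the length trend removed, 1 with sex and 1 to 15 with 1 library left out. Replication genes that fell (6) became 34, 25, 19, 21, 0 and 0 to 14 in the same order. Histones that fell (32) were 21 with sex and 10 to 29 with 1 library left out, coding NMD targets that rose (9) were 5 and 4 to 7, and matrix genes that rose (6) were 2 and 1 to 4, and 3 with the length trend removed. The causes were not tested, beyond the fewer samples of the leave-one-out fits. Cdk3-ps (0.1026) ranged from -0.0444 to 0.1932 with 1 library left out. No paired analysis was possible because the compared groups share no embryo. The fit of all libraries ignored that Ctr and Smg6-iKO do share embryos. Low counts limit the snoRNAs, Oas1b (4 to 6 reads per library in Ctr + 4-OHT) and Esr1 (1 to 8).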
